A study of Mus musculus with 386 samples.

Results

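ATP-binding cassette (ABC) transporter genes were taken as the genes whose single symbol is Abc, a subfamily letter from a to g and a number, apart from 3 symbols outside the rule. They came to 45 of the 18820 genes with a single symbol on the array: 15 of subfamily A, 8 of B, 9 of C, 3 of D, 1 of E, 3 of F and 6 of G. Where several transcript clusters (the probe groups that stand for a gene) shared a symbol, the one with the highest mean was used, which touched 2 members, Abce1 and Abcb5. RNA of 111 mice aged 23 days was hybridised to Affymetrix Mouse Gene 1.1 ST arrays, with 85 arrays of brain, 102 of kidney, 101 of liver and 98 of lung. The mice were of the inbred strains CAST, PWK and WSB or of the 6 reciprocal F1 crosses between them, of both sexes, and crosses are written with the dam first. All were bred at UNC from stock that was fewer than 6 generations from Jackson Laboratory founders, and each cross-by-tissue group held 6 to 13 arrays. The arrays of a group come from separate animals, 11 to 13 per cross, and litters are not given. P-values within a tissue therefore measure the spread between these animals. Of the mice, 67 gave all 4 tissues, and the main comparisons between tissues did not pair the tissues of an animal.

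Most ABC proteins use the energy of ATP to move lipids, bile constituents, drugs, heme or peptides across a membrane. Subfamilies A and G are known mainly for lipids, subfamily B for drugs, phospholipids, peptides and mitochondrial substrates, subfamily C for organic anion conjugates and for the sulfonylurea receptors of potassium channels, and subfamily D for peroxisomes and lysosomes. Members of E and F have the ATP-binding parts without membrane spans and act in ribosome function, so they are not transporters.

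Every signal below is a log2 array signal, and every difference is in log2 units, where 1 unit is a doubling. Probes differ in their brightness, so the level of a gene was compared between arrays and never with the level of another gene. In bulk tissue, fewer cells of a type and less RNA per cell cannot be told apart. Strain variants inside the probe sequences were not analysed here, and the strain results below are therefore differences in signal. The labelled tissues were checked on markers: 7 of 7 neuron markers were called highest in brain, 6 of 6 proximal tubule markers in kidney, 5 of 5 measured hepatocyte markers in liver and 5 of 5 alveolar epithelium markers in lung. Of the arrays, 2 went against their labelled sex: on 1 brain array labelled female the X-inactivation gene Xist was low, and on 1 liver array labelled male it was high. On 2 lung arrays, CASTxCAST replicate 2 and PWKxPWK replicate 11, liver genes were raised, with the hepatocyte gene Cps1 at 11.5 and 11.92 against 4.68 to 10.58 on the other 96. Markers of another organ were also high in other inbred groups. The mean hepatocyte marker level reached 10.97 in PWK kidney (median 6.3), and that of proximal tubule 9.22 in WSB liver (median 5.32). Exocrine pancreas markers reached 12.03 in CAST liver (median 5.22), and no alternative left out the arrays behind these values. Without the arrays against their sex label, all 36 results named below that could be refitted kept their call. Without the 2 lung arrays, 18 of the 20 lung results chosen for full values kept their call, and the values without them stand beside the main lung results.

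Promoter sequence of the C57BL/6J reference (RefSeq, GRCm38.p6) was at hand for 35 members with 42 start sites. The stretches that bear on the results are shown first, with matches to the searched motifs in capitals. Abcg5 and Abcg8, the partner subunits of the sterol pump that exports cholesterol and plant sterols into bile, are transcribed away from each other. Between the start site of Abcg5 and the nearer of the 2 listed for Abcg8 lie the 109 bases of chr17:84683012-84683120. This stretch is printed on the strand of Abcg8 because the pair shares its strongest tissue contrast below, and its capitals mark AGATAA read from the other strand, the core recognised by GATA factors.

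between Abcg5 and Abcg8: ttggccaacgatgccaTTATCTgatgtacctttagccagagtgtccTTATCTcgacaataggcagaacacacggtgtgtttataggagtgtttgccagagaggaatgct

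AGATAA occurred 2 times here, and on either strand of the 250 bases before a start site it occurred in 9.99% of the 32851 promoters in the table and in 5 of the 42 of the members. Abcb1a and Abcb1b, which lie near each other on chromosome 5 and encode the drug pump P-glycoprotein, are shown because their signals took different courses across tissues and strains. Each line holds the 150 bases before the start site, on the + strand at chr5:8566941-8567090 for Abcb1a and chr5:8797997-8798146 for Abcb1b, with capitals for CCAAT and for GGGCGG on either strand, motifs that do not overlap each other.

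Abcb1a: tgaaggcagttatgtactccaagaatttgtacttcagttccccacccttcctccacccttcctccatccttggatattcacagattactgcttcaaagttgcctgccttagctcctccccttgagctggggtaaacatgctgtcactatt

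Abcb1b: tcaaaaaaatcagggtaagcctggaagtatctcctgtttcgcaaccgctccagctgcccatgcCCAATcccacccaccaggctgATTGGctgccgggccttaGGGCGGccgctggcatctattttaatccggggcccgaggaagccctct

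The Abcb1b stretch held CCAAT 2 times and GGGCGG 1 time, and neither set of letters is in the Abcb1a stretch. Over 250 bases, CCAAT occurred in 33.8% of all promoters and 12 of 42 member promoters, and GGGCGG in 32.7% and 19 of 42. These matches are descriptions of the reference sequence and not measured binding sites.

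The first question was where each member is expressed. A member was called highest in a tissue when it was at least 1 unit above each other tissue with an adjusted p under 0.05 against each. Brain was the tissue for 3 members (10.5% of all genes), kidney for 4 (2.95%), liver for 6 (3.93%) and lung for 1 (6.55%), while 31 members were highest in no tissue by this rule. The span from the highest to the lowest tissue mean had a median of 2.06 over the members, against 1.11 over all 18820 genes. By subfamily the median span was 4.0 in G, 2.99 in C, 1.95 in D, 1.89 in A, 1.86 in B and 0.37 in F. The 1 gene of E spanned 0.71.

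**Figure D1:**
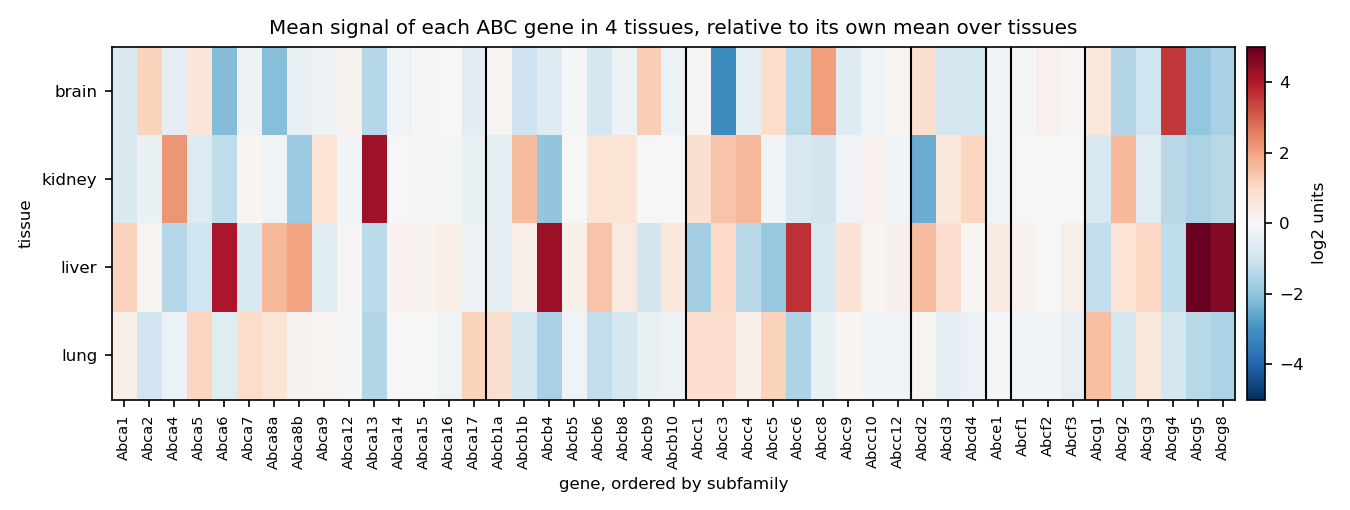
Mean signal of the 45 genes (x axis, ordered by subfamily with black lines between subfamilies) in the 4 tissues (y axis), as the difference in log2 units from the gene's own mean over the tissues. Red is above and blue below that mean, and the strongest red cells are Abcg5 and Abcg8 in liver, while the 3 genes of subfamily F are nearly white.

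Liver was the highest tissue for the sterol pump genes Abcg5 and Abcg8 and for Abcb4, Abcc6, Abca6 and Abca8b. Abcg5 ran from 10.43 through a median of 11.1 to 11.82 on the 101 liver arrays, and its medians were 4.19 in brain, 4.53 in kidney and 4.72 in lung. Liver therefore stood apart from all other arrays, and the gap to lung, the next tissue, was 6.31 ± 0.05 (SE). Abcg8 ran from 10.2 through 10.93 to 11.69 in liver, with a gap of 5.94 ± 0.04 to kidney. Over the 36 cross-by-tissue means Abcg5 and Abcg8 were each other's most similar member (Pearson r 1.0 over the 36 means, which share their tissues). Abcb4, the phosphatidylcholine flippase of the bile canaliculus, had liver values from 10.74 through 11.2 to 11.6 and a gap of 4.93 ± 0.04 to brain. Abcc6, whose loss causes ectopic calcification, ran from 10.2 through 10.56 to 11.01 in liver and stood 4.41 ± 0.03 above kidney. Abca6 was 4.63 ± 0.04 and Abca8b 1.78 ± 0.03 above lung, and both belong to the group of A genes that neighbour each other on chromosome 11.

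On the 2 lung arrays with raised liver genes, Abcg5 read 6.87 and 6.68 against at most 5.88 on the other 96 lung arrays, Abcg8 read 6.5 and 6.19 against at most 5.57, and Abcb4 read 6.81 and 7.07 against at most 6.0. Without both arrays the same counts of 3, 4, 6 and 1 members were called highest.

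Kidney was the highest tissue for Abca13, a very large A protein, for Abca4, for Abcb1b and for Abcc4, an exporter of cyclic nucleotides and organic anions. Abca13 ran from 9.22 through 10.23 to 11.03 in kidney, with medians of 4.48 in brain, 4.63 in liver and 4.48 in lung, and its gap to liver was 5.59 ± 0.03. Abca4, best known as the retinoid flippase of photoreceptors, ran from 7.96 through 8.54 to 9.05 in kidney and stood 2.48 ± 0.03 above lung. Abcc4 ran from 9.3 through 9.99 to 10.78 and its gap to lung was 1.34 ± 0.03. Abcb1b had the widest kidney range of these, 5.33 to 9.7 with a median of 7.78, and a gap of 1.3 ± 0.06 to liver. Under quantile normalization of the arrays Abcb1b was no longer called highest in kidney, and Abca2 in brain and Abca8a in liver were called in addition. Abcg2, a drug and urate exporter, was also highest in kidney, with a median of 10.56 against 9.47 in liver, but its gap of 0.94 ± 0.02 missed the 1-unit minimum.

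Brain was highest for Abcg4, a sterol transporter of neurons and glia, for Abcc8, the sulfonylurea receptor SUR1, and for Abcb9, a lysosomal peptide transporter. Abcg4 ran from 9.67 through 10.03 to 10.4 in brain and its gap to lung was 4.35 ± 0.03. Abcc8 ran from 8.33 through 8.73 to 9.13 and its gap to lung was 2.41 ± 0.04. The potassium channel pores that pair with SUR proteins were also measured: Kcnj11 had medians of 7.79 in brain and 5.84 to 5.89 in the other tissues, while Kcnj8 had 7.0 in brain and 8.39 to 8.78 elsewhere. Abcc9, the other sulfonylurea receptor and the usual partner of Kcnj8, had its lowest median in brain, 7.7, and its highest in liver, 9.09. Abcb9 ran from 8.39 through 8.81 to 9.3 in brain and its gap to kidney was 1.23 ± 0.02. Abca2, abundant in myelin-forming cells, had a median of 11.38 in brain and a gap of 0.99 ± 0.02 to liver, just outside the minimum.

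Lung was highest for Abca17 alone under the rule, with 4.72 through 6.64 to 7.55 and a gap of 1.46 ± 0.03 to liver. Abcg1, which loads cholesterol onto high-density lipoprotein, was also highest in lung, with a median of 11.3 there and 10.38 in brain and a gap of 0.93 ± 0.03. Its partner in cholesterol efflux, Abca1, was highest in liver, with a median of 10.92 there and 10.05 in lung. Abcc1, an exporter of glutathione conjugates, did not separate its 2 highest tissues: the medians were 9.03 in lung and 9.03 in kidney, with a difference of 0.03 ± 0.03 (limma, adjusted p = 0.337). Abcb1a had medians of 9.32 in lung, 8.65 in brain, 8.03 in liver and 7.96 in kidney, and kidney and liver did not differ by the test (adjusted p = 0.79).

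Genes of ribosome function were comparatively even across tissues. Abcf1, Abcf2 and Abcf3, which act in translation, spanned 0.34, 0.37 and 0.73, and Abce1, the ribosome recycling factor, spanned 0.71. Such small spans were not particular to them, since Abcc10 spanned 0.45. Abcd3, the peroxisomal import protein of branched-chain acyl-CoA, had medians from 10.1 in brain to 11.84 in liver, and Abcd2, its relative for very long-chain fatty acids, went from 6.58 in kidney to 10.72 in liver. The mitochondrial members Abcb6, Abcb8 and Abcb10, known for heme and iron-sulfur biology, had their highest medians in liver, kidney and liver, at 11.06, 9.63 and 9.33. Abca12, Abca14, Abca15, Abca16, Abcb5, Abcc12 and Abcg3 were below the signal filter in all 4 tissues, so those 7 members entered no strain or sex test.

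ABC genes with other names showed further tissue patterns. Cftr, the chloride channel of epithelia, had medians of 8.45 in lung, 6.41 in kidney, 4.81 in brain and 4.6 in liver. Tap2, a subunit of the peptide transporter for antigen presentation, had medians of 8.88 in lung, 8.82 in liver, 7.88 in kidney and 6.48 in brain.

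The next question was how the inbred strains differ in each tissue. Genes were tested if their mean lay at or above the 40th percentile of the tissue, which kept 11292 genes and, of the members, 27 for brain, 29 for kidney, 33 for liver and 29 for lung, with 24 kept in all 4 tissues. CAST and PWK differed in 15 members in brain (40.9% of all genes), 17 members in kidney (60.1%), 20 members in liver (50.1%) and 21 members in lung (62.7%). For CAST and WSB the brain had 15 called members (52.4%), the kidney 16 (59.6%), the liver 17 (57.0%) and the lung 17 (59.9%). For PWK and WSB the brain had 15 (40.4%), the kidney 18 (60.7%), the liver 23 (55.3%) and the lung 18 (61.4%). Over all these tests 212 of 354 were called, 59.9%, beside 55.0% over all genes, so the share lay near the background. The members' called differences reached 0.5 units in 53 tests (15%, beside 13.5% over all genes) and 1 unit in 16 (4.52%, beside 3.32%). None of the 36 tests of the F genes and none of the 12 of Abce1 was a called difference of 0.5.

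**Figure D2:**
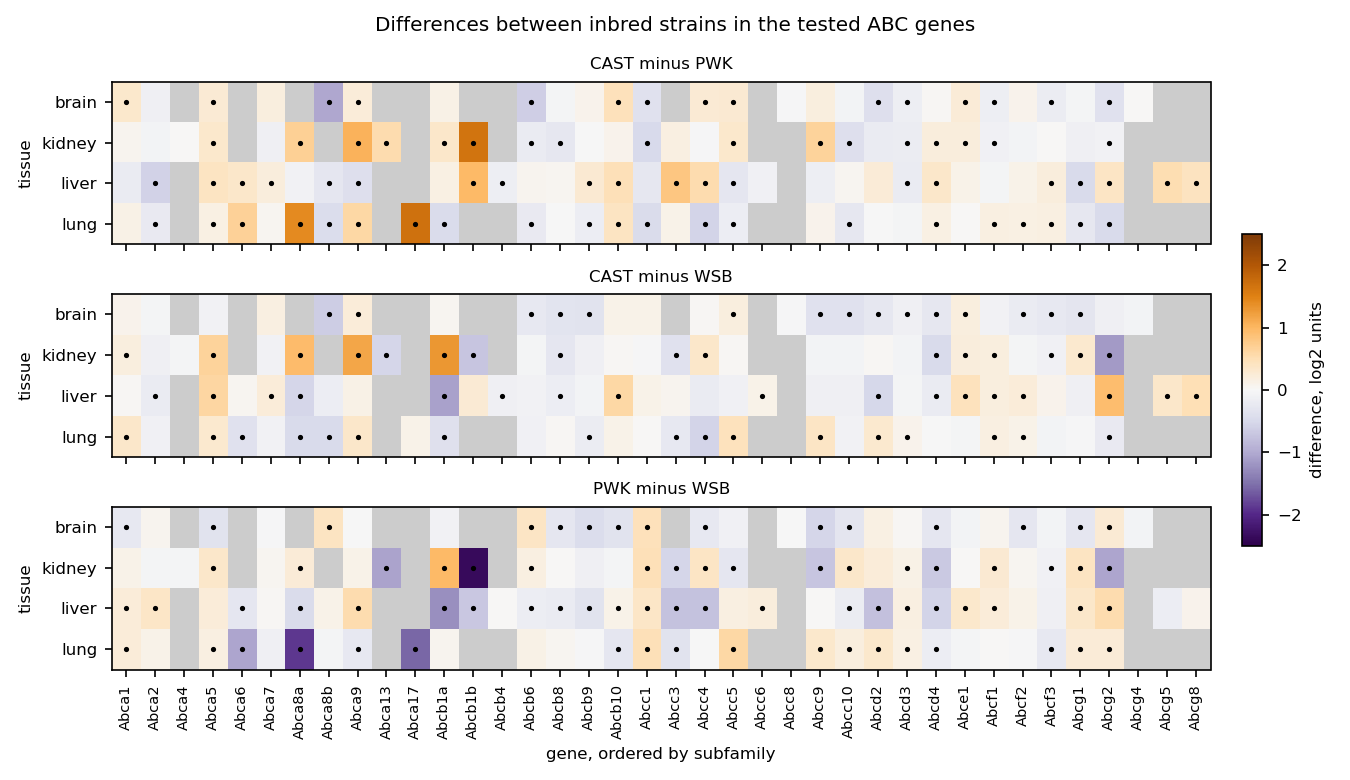
Differences between inbred strains in log2 units for the members tested in at least 1 tissue (x axis, by subfamily), with a panel for each pair of strains and a line for each tissue (y axis). Orange means higher in the first strain, purple lower, grey not tested, and a dot marks an adjusted p under 0.05. The deepest cell is Abcb1b in kidney between PWK and WSB, at -2.36, and the kidney and liver cells of Abcg2 and Abcb1a have opposite colours in comparisons with WSB.

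The drug-efflux genes Abcg2 and Abcb1a were each high in WSB in one organ and low in the other. In kidney, Abcg2 ran from 10.89 through 11.08 to 11.26 on the 12 WSB arrays, from 9.82 through 9.92 to 10.06 on 11 CAST arrays and from 9.82 through 10.02 to 10.23 on 12 PWK arrays. WSB lay above both other strains with no overlap, and the differences were -1.15 ± 0.04 for CAST minus WSB (limma, adjusted p = 2.51e-42) and -1.05 ± 0.04 for PWK minus WSB (adjusted p = 2.22e-40). In liver, Abcg2 ran from 8.73 through 8.89 to 9.3 in WSB (13 arrays), from 9.48 through 9.88 to 10.07 in CAST (11 arrays) and from 9.2 through 9.42 to 9.66 in PWK (9 arrays). Here WSB was the lowest strain, apart from CAST and overlapping PWK slightly, with differences of 0.92 ± 0.05 for CAST minus WSB (adjusted p = 1.4e-29) and 0.54 for PWK minus WSB. The CAST-WSB difference of Abcg2 was -0.14 for brain, -1.15 for kidney, 0.93 for liver and -0.21 for lung in the fit over all arrays, and the test that it is the same in the 4 tissues gave an adjusted p of 2.31e-62. The promoter table lists 3 start sites for Abcg2, and their use was not measured separately.

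Abcb1a took the reverse course. In kidney it ran from 6.96 through 7.31 to 7.77 in WSB, from 8.29 through 8.66 to 9.03 in CAST and from 8.05 through 8.32 to 8.59 in PWK, so that WSB lay below every array of both other strains. The difference was 1.3 ± 0.07 for CAST minus WSB (adjusted p = 2.63e-29) and 0.96 for PWK minus WSB. In liver it ran from 8.5 through 8.9 to 9.38 in WSB, from 7.45 through 7.73 to 8.61 in CAST and from 7.28 through 7.8 to 8.09 in PWK. WSB was then the highest strain, apart from PWK and overlapping CAST slightly, with -1.09 ± 0.1 for CAST minus WSB (adjusted p = 1.55e-16) and -1.24 ± 0.11 for PWK minus WSB (adjusted p = 4.93e-18). In brain, where Abcb1a serves the blood-brain barrier, CAST minus WSB was 0.04 ± 0.06 and was not called (adjusted p = 0.621), and the test across tissues for that pair gave an adjusted p of 1.99e-54.

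Endothelial markers, which mark vessels that express Abcb1a, moved less: the mean level of the 7 markers lay between 10.14 and 10.42 on all inbred kidney arrays and had strain medians of 9.41 in CAST, 9.62 in PWK and 9.47 in WSB in liver. Their part in the result was not tested. Of the 7 endothelial markers tested in liver between PWK and WSB, 3 were higher in PWK and 0 lower, with a median difference of 0.15.

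Abcb1b, the second P-glycoprotein gene, was low in PWK livers and in the kidneys of PWK males. In kidney the 11 CAST arrays ran from 7.6 through 7.97 to 8.33 and the 12 WSB arrays from 7.87 through 8.71 to 9.7, while the 12 PWK arrays ran from 5.33 through 5.5 to 9.43. The PWK arrays were not alike: all 6 males lay between 5.33 and 5.57, and the 6 females read 5.35, 5.68, 6.56, 7.78, 8.92 and 9.43. CAST minus PWK was 1.66 ± 0.22 (adjusted p = 2.62e-10) and PWK minus WSB -2.36 ± 0.21 (adjusted p = 3.06e-17). These errors use a spread shared by all groups, while the SD was 1.7 in PWK females and 0.09 in PWK males. They therefore understate the uncertainty for the PWK females. Female means were 7.96 in CAST and 7.29 in PWK, and male means were 8.05 and 5.41. In liver the 9 PWK arrays lay within 5.4 and 5.66, below the lowest of the 11 CAST arrays at 5.69, and CAST minus PWK was 0.97 ± 0.15 (adjusted p = 5.43e-08). In brain and lung, where Abcb1b was below the signal filter, its medians were 5.05 and 5.19. The PWK livers and the PWK male kidneys thus read close to levels not shown to be above background, and the size of these differences rests on that low end. These PWK livers were 5 female and 4 male ones, so neither sex showed there the range of the female kidneys. Among the kidneys, the 2 females at 8.92 and 9.43 fall in the same run of neighbouring animal numbers as 3 males between 5.38 and 5.57. The female at 5.35 shares a run with the males at 5.33, 5.36 and 5.37. The females at 5.68, 6.56 and 7.78 fall in another run, without males. The female values of these runs did not overlap, and the part of the run was not tested.

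**Figure D3:**
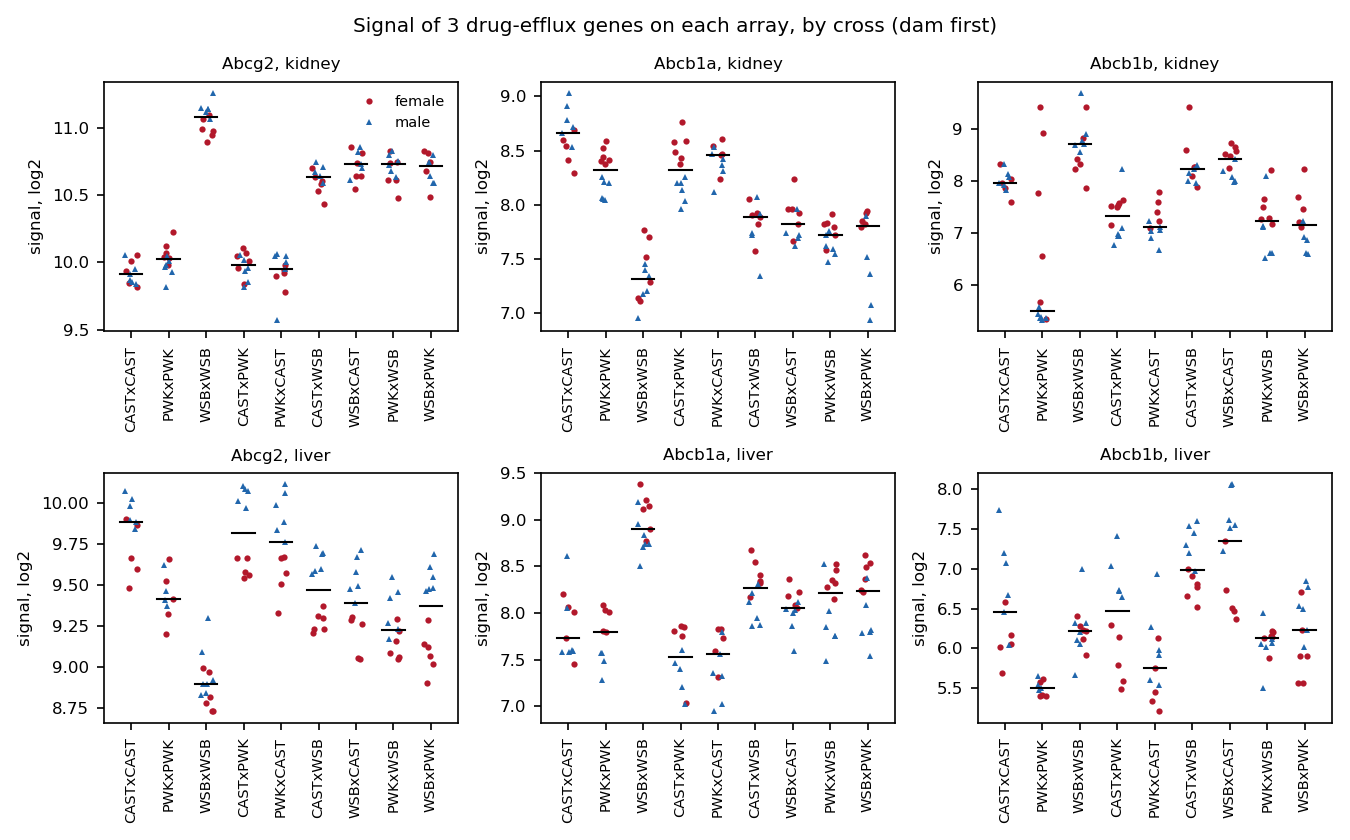
Signal in log2 units (y axis) of Abcg2, Abcb1a and Abcb1b on every kidney array (upper panels) and liver array (lower panels) for the 9 crosses (x axis, dam first), with red circles for females, blue triangles for males and a black bar at the median of each cross. WSBxWSB is the highest cross for Abcg2 in kidney and the lowest in liver, Abcb1a shows the opposite, and the PWKxPWK kidneys reach from 5.33 to 9.43 for Abcb1b.

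Among the A genes, the neighbours on chromosome 11 (Abca8b, Abca8a, Abca9, Abca6 and Abca5, in that order) differed between strains in ways that depended on the tissue. Their substrates are poorly known, and they are usually grouped with the lipid transporters. In lung, Abca8a ran from 7.33 through 7.56 to 8.08 in PWK, from 8.75 through 8.97 to 9.35 in CAST and from 9.25 through 9.44 to 9.83 in WSB. PWK lay below all arrays of both other strains, with CAST minus PWK at 1.41 ± 0.07 (adjusted p = 6.03e-31) and PWK minus WSB at -1.88 ± 0.07 (adjusted p = 2.59e-41), or 1.44 and -1.9 without the 2 lung arrays. In kidney Abca8a was instead highest in CAST, from 8.18 through 8.42 to 8.75 against 7.57 through 7.75 to 8.02 in PWK (0.69 ± 0.07, adjusted p = 1.54e-15).

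Abca9 in kidney ran from 8.87 through 9.2 to 9.4 in CAST, from 7.97 through 8.08 to 8.29 in PWK and from 7.69 through 8.01 to 8.25 in WSB. CAST lay above both, by 1.05 ± 0.07 over PWK (adjusted p = 1.57e-26) and by 1.16 ± 0.07 over WSB (adjusted p = 1.75e-29). In liver the CAST-PWK difference of Abca9 went the other way, -0.4. Abca8b in brain ran from 6.62 through 6.86 to 7.36 in CAST, from 7.36 through 7.48 to 7.62 in WSB and from 7.75 through 7.95 to 8.09 in PWK, an order in which CAST and PWK did not overlap (-1.03 ± 0.08, adjusted p = 1.33e-17). Of the 5 oligodendrocyte markers measured of 7 listed, CAST brain had 4 lower and 0 higher against PWK, with a median difference of -0.34, and 4 lower and 0 higher against WSB, with -0.31. Their mean level ran from 10.3 through 10.65 to 10.84 in CAST, from 10.92 through 11.14 to 11.26 in PWK and from 10.85 through 11.22 to 11.4 in WSB, and their part in the Abca8b result was not tested. Abca6 in lung ran from 5.49 through 5.78 to 7.04 in PWK and from 6.63 through 6.95 to 7.29 in WSB, with overlap and a difference of -1.04 ± 0.11 (adjusted p = 3.52e-14). The PWK array at 7.04 is one of the 2 with raised liver genes, and without both arrays the difference was -1.14.

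Abca5, at the end of the same row of genes, was the 1 member of the 24 tested in all tissues that was called higher in CAST than in PWK in each of them, by 0.26 (brain), 0.32 (kidney), 0.4 (liver) and 0.14 (lung). In these kidneys the brown fat list also differed, with 5 of 5 tested markers higher in CAST than in PWK and 3 of 5 higher in CAST than in WSB, and its level had medians of 9.55 in CAST, 8.97 in PWK and 8.63 in WSB, with overlap. With that level as a covariate Abca9 kept its differences of 1.05 and 1.16, and Abca8a had 0.63 between CAST and PWK. Heart muscle markers in lung were lower in PWK than in WSB for 7 of 7 tested, and with their level as a covariate the Abca8a difference there was -1.92. Each covariate was a single marker list set for its tissue, and its markers differed between the strains compared. Such a fit cannot separate a strain difference from one in tissue content, whose part in these results was not tested.

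Abca17 in lung ran from 4.72 through 5.18 to 5.52 in PWK, from 6.5 through 6.84 to 7.23 in CAST and from 6.33 through 6.74 to 7.11 in WSB. PWK lay below both with no overlap, by 1.68 ± 0.1 from CAST (adjusted p = 3.83e-26) and -1.57 ± 0.1 as PWK minus WSB (adjusted p = 9.9e-26). Without the 2 lung arrays these were 1.68 and -1.54. Its PWK lung signals lay within the range of its signals in the other tissues, 4.28 to 5.87, where it was below the signal filter, so the PWK level is not shown to be above background and the size of both differences rests on it. Abca13 in kidney ran from 9.36 through 9.77 to 10.01 in PWK and from 10.45 through 10.77 to 11.03 in WSB, without overlap (-1.06 ± 0.08, adjusted p = 1.83e-20). Abca2 in liver ran from 9.95 through 10.22 to 10.36 in CAST and from 10.58 through 10.75 to 10.92 in PWK (-0.57 ± 0.07, adjusted p = 1.81e-12). Abca5 in liver ran from 8.11 through 8.25 to 8.5 in CAST and from 6.76 through 7.72 to 8.26 in WSB, with overlap (0.62 ± 0.1, adjusted p = 5.39e-08).

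In subfamily C no called difference reached 1 unit among 75 tests, while the median absolute difference was 0.25, beside 0.21 over all members. Abcc3, a basolateral exporter of bile acids and glucuronides, ran in liver from 9.31 through 9.41 to 9.8 in PWK, from 9.58 through 10.39 to 10.72 in CAST and from 9.3 through 10.37 to 11.07 in WSB. PWK was the lowest by median and overlapped both, with CAST minus PWK at 0.81 ± 0.17 (adjusted p = 2.26e-05) and PWK minus WSB at -0.76 ± 0.16 (adjusted p = 3.81e-05). Abcc4 in lung ran from 8.1 through 8.29 to 8.49 in CAST and from 8.55 through 8.82 to 9.11 in WSB, without overlap (-0.56 ± 0.05, adjusted p = 1.38e-15, and -0.57 without the 2 lung arrays). Abcc9 in brain ran from 7.42 through 7.59 to 7.77 in PWK and from 7.96 through 8.14 to 8.35 in WSB, without overlap (-0.54 ± 0.09, adjusted p = 1.04e-06). Of the 6 markers of mural cells, the vessel cells in which Abcc9 is known to be expressed, 4 were lower in PWK than in WSB brain and 0 higher, with a median difference of -0.27. Their mean level ran from 8.42 through 8.54 to 8.79 in PWK and from 8.36 through 8.86 to 9.05 in WSB, and their part in the Abcc9 result was not tested. Abcc10, a broad lipophilic anion exporter, ran in brain from 6.32 through 6.53 to 6.88 in CAST and from 6.56 through 6.94 to 7.11 in WSB, with overlap (-0.37 ± 0.06, adjusted p = 6.48e-07).

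Abcc1 was higher in PWK than in WSB in all 4 tissues, by 0.46 (brain), 0.47 (kidney), 0.37 (liver) and 0.47 (lung). The test for a difference between the tissues did not pass for it (adjusted p = 0.89), and in the fit over all arrays the 4 values lay between 0.38 and 0.48. Abcd4, a lysosomal protein of vitamin B12 export, was lower in PWK than in WSB in all 4 tissues, but its size varied from -0.16 in lung to -0.67 in kidney (test across tissues, adjusted p = 1.55e-07).

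Of the mitochondrial genes, Abcb6 in brain ran from 8.33 through 8.41 to 8.74 in CAST and from 9.02 through 9.08 to 9.24 in PWK, without overlap (-0.62 ± 0.06, adjusted p = 9.19e-15). Abcb10 in brain ran from 8.42 through 8.55 to 8.82 in CAST and from 7.89 through 8.2 to 8.34 in PWK, also without overlap and in the other direction (0.45 ± 0.06, adjusted p = 2.81e-08). Abcb9 in brain ran from 8.59 through 8.66 to 8.73 in PWK and from 8.76 through 9.13 to 9.3 in WSB (-0.43 ± 0.06, adjusted p = 9.33e-10). Abcd2 in liver ran from 9.52 through 10.34 to 10.91 in PWK and from 10.66 through 10.99 to 11.49 in WSB, with overlap (-0.77 ± 0.11, adjusted p = 7.65e-09).

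Both genes of the sterol pair were highest in CAST liver. Abcg5 ran from 11.01 through 11.48 to 11.82 in CAST, from 10.55 through 11.01 to 11.14 in PWK and from 10.74 through 11.1 to 11.35 in WSB, with CAST above PWK by 0.52 and above WSB by 0.35. Abcg8 ran from 11.09 through 11.27 to 11.69 in CAST, from 10.51 through 10.96 to 11.23 in PWK and from 10.37 through 10.79 to 11.09 in WSB, with CAST above PWK by 0.42 and above WSB by 0.5. All 4 of these differences were called. PWK minus WSB was -0.17 for Abcg5 and 0.08 for Abcg8, and neither was called (adjusted p = 0.0723 and 0.508).

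Whether a strain difference was the same in each tissue was tested for the 24 members measured in all 4. The CAST-PWK difference depended on the tissue for 20 members (65.7% of all genes), the CAST-WSB difference for 21 (69.3%) and the PWK-WSB difference for 20 (65.6%). Of the 29 members tested in 2 or more tissues, those called in opposite directions in different tissues came to 8 for CAST-PWK (17.6% of all genes), 9 for CAST-WSB (20.3%) and 14 for PWK-WSB (18%). These are 27.6%, 31.0% and 48.3% of the members, which share samples between pairs. Abcg2, Abcb1a and Abcc4 were among them for all 3 pairs, and Abcc1 passed the test of a difference between tissues for none of them.

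Other genes of the pathways were read beside the members from fixed lists. In kidney, 3 of 6 tested receptors and factors of drug-transporter control were higher in CAST than in WSB and 3 lower, with Nr1i2, the pregnane X receptor, higher by 0.76 ± 0.06 (adjusted p = 1.45e-19). Between PWK and WSB, 2 of the 6 were higher and 2 lower, and Nr1i2 was higher in PWK by 0.94 ± 0.06 (adjusted p = 1.3e-25). Most genes on the list of uptake carriers bring organic ions or bile acids into cells. In liver this list held 0 higher and 4 lower of 7 tested between PWK and WSB, with Slco1a4 at -0.55 ± 0.09 (adjusted p = 7.14e-08). In kidney, 2 of the 6 tested on this list were higher in CAST than in WSB and 3 lower, with a median difference of -0.15. Of the higher ones, Slc10a1, the sodium-dependent bile acid carrier, differed by 3.2 ± 0.13 (adjusted p = 7.49e-40). Lipid efflux and LXR genes in lung were higher in CAST than in WSB for 5 and lower for 1 of 8, and in liver 2 were higher and 2 lower. Of 6 peroxisomal partners, 2 were higher and 2 lower in liver between PWK and WSB. Of 7 heme and iron-sulfur partners, brain had 1 higher and 4 lower in CAST against PWK. Tap1, the other antigen peptide transporter subunit, was lower in CAST than in WSB liver by -1.03 ± 0.09 (adjusted p = 6.37e-19).

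The F1 crosses were set against the mean of their parent strains' log2 signals. Where the parents lie far apart, the log2 of their mean linear signal is higher than this mid-parent, so that a difference of 0 does not stand for additive linear signals. F1 mice of CAST and PWK differed from this mid-parent in 6 members in brain (18.9% of all genes), 10 members in kidney (33.7%), 13 members in liver (18.7%) and 6 members in lung (19.5%). F1 mice of CAST and WSB did so for 11 members in brain (37.1%), 15 members in kidney (42.7%), 17 members in liver (25.3%) and 12 members in lung (30.5%). F1 mice of PWK and WSB did so for 2 members in brain (10%), 12 members in kidney (37.4%), 9 members in liver (17.0%) and 9 members in lung (37.2%). Labels give no litter or day, so runs of neighbouring animal numbers were used as a random block. With this block the calls over the 3 pairs fell from 19 to 11 in brain, from 37 to 13 in kidney, from 39 to 15 in liver and from 27 to 10 in lung.

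Where the parents differed by a called 0.5 units or more, the F1 mean lay between them in 49 of 53 cases. Brain held 4 of 4 such cases, kidney 20 of 20, liver 15 of 19 and lung 10 of 10. The share over all genes was not computed, and the cases share genes and arrays. Choosing cases by a large parental gap favours an F1 mean between the parents, so these counts are no result about the members. Abcg2 in kidney gave a clear case: CASTxWSB ran from 10.43 through 10.64 to 10.75 and WSBxCAST from 10.55 through 10.73 to 10.86, between the CAST highest of 10.06 and the WSB lowest of 10.89. Abcb1a in kidney had medians of 7.89 in CASTxWSB and 7.83 in WSBxCAST, between 7.31 in WSB and 8.66 in CAST. Abcb1b in kidney had medians of 7.23 in PWKxWSB and 7.16 in WSBxPWK, between 5.5 in PWK and 8.71 in WSB.

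Abcc3 and Abcc4 in liver lay below both parents in crosses with CAST. Abcc3 ran from 8.18 through 8.7 to 9.76 in CASTxPWK and from 8.63 through 9.01 to 9.32 in PWKxCAST, against parent medians of 10.39 and 9.41. The mid-parent difference was -0.97 ± 0.12 (adjusted p = 1.42e-10). For CAST and WSB, whose parent medians were 10.39 and 10.37, CASTxWSB had a median of 9.27 and WSBxCAST of 9.06, and the difference was -1.11 ± 0.11 (adjusted p = 1.04e-14). The F1 arrays were mostly below the parents in both cases, with overlap, and both were called with the block. For PWK and WSB the F1 mean of Abcc3 lay between the parents and the difference of -0.23 was not called (adjusted p = 0.141).

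Abcc4 in liver ran from 5.98 through 6.52 to 6.84 in CASTxPWK and from 5.96 through 6.37 to 6.84 in PWKxCAST, against medians of 7.44 in CAST and 6.86 in PWK. Its mid-parent difference was -0.75 ± 0.1 (adjusted p = 8.49e-10), and for CAST and WSB it was -0.73 ± 0.09 (adjusted p = 1.04e-10). In brain the F1 of CAST and WSB ran from 7.48 through 7.75 to 8.01 on 19 arrays and the parents from 7.95 through 8.32 to 8.55 on 19, so they barely overlapped. The difference was -0.48 ± 0.05 (adjusted p = 9.17e-12), beside -0.37 ± 0.05 for CAST and PWK and -0.24 ± 0.05 for PWK and WSB. In kidney it was -0.29, -0.37 and -0.46 for the same order of CAST-PWK, CAST-WSB and PWK-WSB. Abcc4 was below the lower parent mean in all 3 pairs in brain and in kidney, and the block also made the 3 brain calls, those of kidney for CAST-WSB and PWK-WSB and that of liver for CAST-PWK. In lung its 3 differences were -0.02, 0.02 and 0.08, and none was called.

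**Figure D4:**
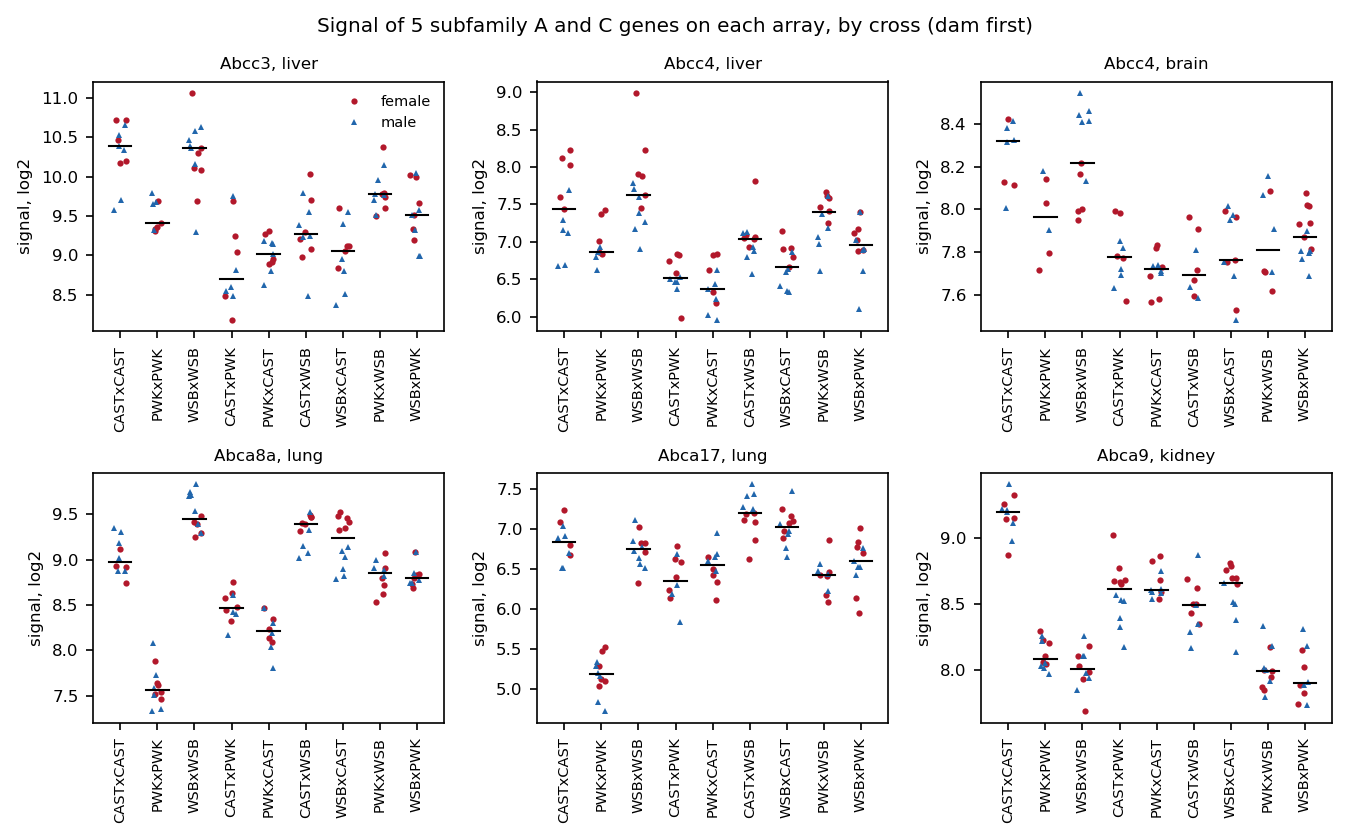
Signal in log2 units (y axis) of Abcc3 and Abcc4 in liver, Abcc4 in brain, Abca8a and Abca17 in lung and Abca9 in kidney on every array of the 9 crosses (x axis, dam first, the 3 inbred strains first), with red circles for females, blue triangles for males and black bars at the medians. For Abcc3 and Abcc4 in liver the crosses of CAST with PWK have medians under both parents, while for Abca8a in lung and Abca9 in kidney the crosses of CAST and PWK lie between them.

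Some members were above the mid-parent. Abcb1b in liver ran from 6.37 through 7.19 to 8.06 on the 23 F1 arrays of CAST and WSB and from 5.67 through 6.22 to 7.74 on the 24 parental arrays (0.77 ± 0.1, adjusted p = 6.89e-10), and this was called with the block. For PWK and WSB it was 0.29 ± 0.1 (adjusted p = 0.0332), not called with the block (adjusted p = 0.368). Abca17 in lung was above the mid-parent by 0.43 ± 0.07, 0.31 ± 0.07 and 0.53 ± 0.07 for CAST-PWK, CAST-WSB and PWK-WSB (adjusted p = 5.17e-06, 0.000373 and 7.81e-09), called with the block in each. Without the 2 lung arrays these were 0.41, 0.3 and 0.52, and against the mean linear signal of the parents 0.21, 0.31 and 0.33, with no test. The CAST-PWK and PWK-WSB values rest on the PWK lungs near background. Abca4 in kidney ran from 8.35 through 8.73 to 9.05 on 23 F1 arrays of CAST and PWK and from 7.96 through 8.47 to 8.68 in the parents (0.31 ± 0.05, adjusted p = 8.76e-07). Abca8a was above the mid-parent of PWK and WSB by 0.36 ± 0.06 in liver and 0.29 ± 0.05 in lung (adjusted p = 5.47e-07 and 4.68e-06). In lung, where the parent means were 7.61 and 9.5, the F1 mean of 8.83 was 0.0 from the mean linear signal of the parents, and in liver it was 0.34 above it, with no test. Without the 2 lung arrays the lung value was 0.3. Abcg1 in kidney was 0.23 ± 0.06 above for PWK and WSB (adjusted p = 0.00236), which the block did not call (adjusted p = 0.0977).

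Further members lay below the mid-parent by small amounts. Abcc9 in brain and lung had, for CAST and PWK, mid-parent differences of -0.29 ± 0.06 (adjusted p = 0.0011) and -0.32 ± 0.05 (adjusted p = 8.9e-07), and the second was -0.33 without the 2 lung arrays. Abca7, linked to phospholipid handling in microglia, was at -0.27 ± 0.05 in brain for CAST and WSB (adjusted p = 9.28e-05). Abcd2 in kidney was at -0.47 ± 0.13 for CAST and PWK and -0.46 ± 0.13 for CAST and WSB, neither called with the block (adjusted p = 0.184 and 0.114). Its kidney arrays ranged from 5.17 to 7.95 in the F1 of CAST and PWK and from 5.7 to 8.14 in the parents. In lung Abcd2 was at -0.26 ± 0.07 for CAST and WSB (adjusted p = 0.00252, and 0.0525 with the block), and also -0.26 without the 2 lung arrays. Abcf1 in brain was at -0.12 ± 0.04 for PWK and WSB (adjusted p = 0.0365, and 0.132 with the block), a call that also ended when 1 of 6 brain arrays was left out: PWKxPWK replicates 1, 3, 5 and 6 and PWKxWSB replicates 2 and 6 (adjusted p between 0.0568 and 0.1).

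Reciprocal crosses carry the same pairs of autosomes, with the parent of origin exchanged. They also differ in the dam and, in males, in the X and Y chromosomes. No member lies on the X chromosome. By limma, CASTxPWK and PWKxCAST differed in 0 members in brain (0.151% of all genes), 3 members in kidney (3.03%), 4 members in liver (9.32%) and 0 members in lung (0.611%). CASTxWSB and WSBxCAST differed in 0 members in brain (0.779%), 0 members in kidney (2.44%), 0 members in liver (5.62%) and 13 members in lung (38.8%). PWKxWSB and WSBxPWK differed in 0 members in brain (0.248%), 0 members in kidney (1.0%), 0 members in liver (1.22%) and 1 member in lung (8.4%). In the 8 comparisons with 0 calls, an unadjusted p under 0.05 was seen for 1 to 7 members. With the run block 4 of the 21 calls over all tissues were made, all in lung between CASTxWSB and WSBxCAST: Abca7, Abcc3, Abcc5 and Abcd2.

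Abcd2 in lung ran from 8.24 through 8.75 to 8.92 on the 11 CASTxWSB arrays and from 8.79 through 9.24 to 9.48 on the 12 WSBxCAST arrays, nearly apart (-0.5 ± 0.1, adjusted p = 8.39e-05). Abca7 ran from 8.76 through 8.86 to 9.11 and from 8.34 through 8.62 to 8.89 in the same crosses, higher with the CAST dam (0.29 ± 0.06, adjusted p = 0.000315). The named calls outside that comparison were not called with the block. These were Abca1 (-0.35 ± 0.08, adjusted p = 0.00518), Abcf2 (0.17 ± 0.04, adjusted p = 0.00788) and Abcb10 (0.14 ± 0.04, adjusted p = 0.0352) between CASTxPWK and PWKxCAST in kidney, where the block gave an adjusted p of 0.999 for each. In liver the same crosses differed in Abcb1b (0.57 ± 0.15, adjusted p = 0.00751, and 0.36 with the block), Abcc6 (-0.18 ± 0.05, adjusted p = 0.0151, and 0.53) and Abca8b (-0.3 ± 0.08, adjusted p = 0.0161, and 0.535). Abcc3 in lung differed between PWKxWSB and WSBxPWK by 0.3 ± 0.07 (adjusted p = 0.00376, and 0.381 with the block). Without the 2 lung arrays, which are of inbred strains, the lung values of Abcd2, Abca7 and Abcc3 were -0.5, 0.29 and 0.3.

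Sex differences were tested over all 9 crosses as female minus male. Limma called 0 members in brain (0.0708% of all genes, with 0 members at an unadjusted p under 0.05), 4 members in kidney (10.9%), 11 members in liver (13.8%) and 2 members in lung (3.52%). Abcc3 in kidney ran from 9.4 through 10.37 to 10.95 on 51 female arrays and from 9.04 through 9.82 to 10.49 on 51 male arrays (0.45 ± 0.05, adjusted p = 2.98e-13). Its female median was the higher one in each of the 9 crosses, for example 10.73 against 9.95 in CASTxWSB and 10.06 against 9.92 in CASTxCAST. Abcb1a and Abcb1b were also higher in female kidney, by 0.19 ± 0.04 (adjusted p = 4.92e-05) and 0.45 ± 0.1 (adjusted p = 0.00124). The female and male medians of Abcb1b were 7.17 and 5.38 in PWKxPWK kidney, but 8.37 and 8.75 in WSBxWSB, and the difference between crosses was not tested. Its SE uses the spread shared by all groups, while the SD was 1.7 in PWK females and 0.09 in PWK males. For Abcb1a the female median was the lower one only in CASTxCAST, at 8.55 against 8.75. The fourth kidney call was Abca8a, with 0.13.

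In liver, Abcd2 ran from 9.84 through 10.87 to 11.49 on 49 female arrays and from 8.58 through 10.54 to 11.18 on 52 male arrays (0.55 ± 0.05, adjusted p = 5.16e-15). Abcg2 was lower in females, 8.73 through 9.29 to 9.9 against 8.83 through 9.59 to 10.11 (-0.29 ± 0.03, adjusted p = 3.64e-17). The P-glycoprotein genes went in opposite directions, with Abcb1a higher in female liver by 0.34 and Abcb1b at -0.48. For Abcb1b the female and male liver medians were 6.06 and 6.87 in CASTxCAST, 5.42 and 5.52 in PWKxPWK and 6.22 and 6.21 in WSBxWSB. The average over crosses thus does not hold for each cross, and the difference between crosses was not tested. Abcb10 was at -0.19 ± 0.02 (adjusted p = 4.39e-10) and Abca8b at -0.23. Higher in females were also Abcc4 by 0.37, Abca2 by 0.19, Abcb4 by 0.16, Abcg5 by 0.15 and Abcc9 by 0.13, while Abcg8 was at 0.02 and not called (adjusted p = 0.842). In lung, Abcc5 (-0.09 ± 0.03, adjusted p = 0.0392) and Abca6 (0.18 ± 0.05, adjusted p = 0.04) were called, neither with the block (adjusted p = 0.124 and 0.104), and 0 were called without the 2 lung arrays with raised liver genes.

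**Figure D5:**
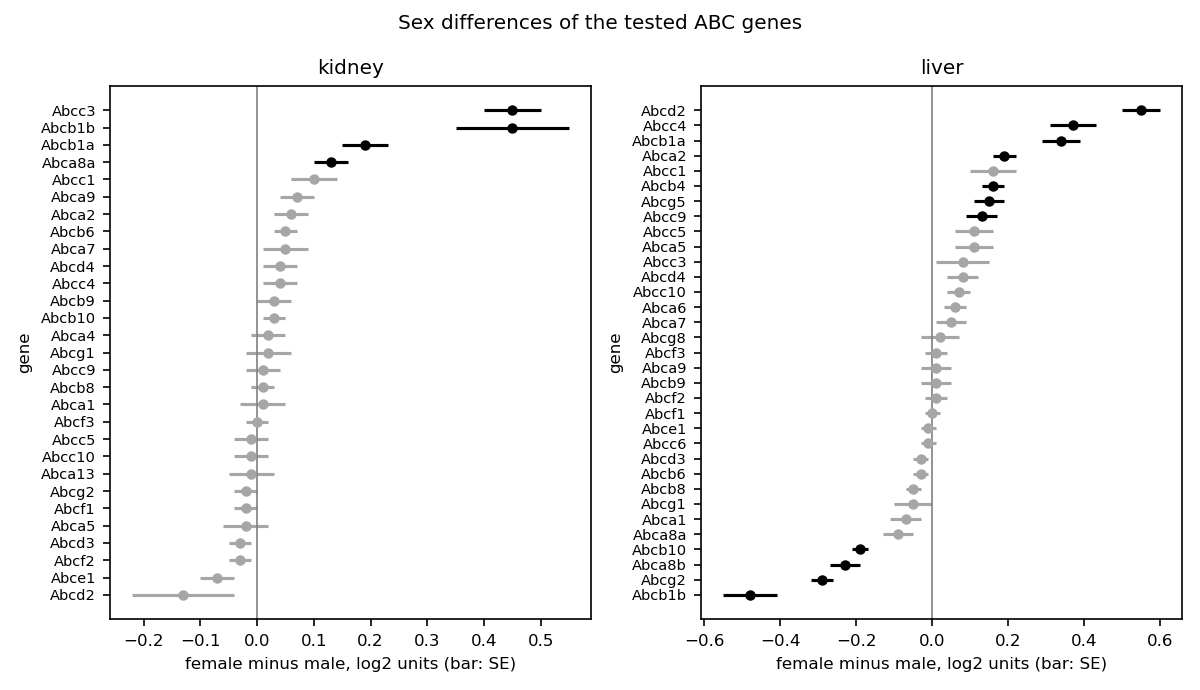
Female minus male difference in log2 units (x axis, 0 marked by a line) of every tested member (y axis, sorted) in kidney and in liver, as the estimate with its standard error over all crosses. Black points passed an adjusted p under 0.05 and grey points did not, with 4 black points in kidney, all above 0, and 11 in liver, of which 4 are below 0.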

How the data were processed

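The deposited values are log2 signals per transcript cluster, made by RMA in Affymetrix Expression Console per the submitters' processing notes. The sources used here do not say if RMA was run on all tissues at once. The signals were used as deposited, and array medians lay between 5.89 and 6.36. Of 35556 clusters, 21218 had 1 gene symbol, 1881 several and 12457 none, and several-symbol clusters were left out. Arrays give no read depth, so their number limits the precision.

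Groups were read from the labels (dam, sire, tissue and sex). Differences were fitted with limma 3.58.1 (R 4.3.3, empirical Bayes with a trend). Each tissue was fitted with 18 cross-by-sex means, both sexes weighted equally, on the 11292 genes at or above the 40th percentile. Tissues were compared over 36 cross-by-tissue means with no filter, and the strain-by-tissue F test used the 9152 genes that passed in every tissue. Neither had a block for the animal in the main fit. P-values were adjusted by Benjamini-Hochberg over all genes tested per tissue and contrast, and called under 0.05. The scripts were tested on simulated data.

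Alternatives were a filter at the 60th percentile or none, quantile normalization, array weights, additive sex, a marker covariate, blocks, a 2-unit tissue gap, a mid-parent of linear signals and left-out arrays. The runs used as a block are 25 stretches of neighbouring animal numbers within a cross, where a gap over 5 starts a new one, with a consensus correlation of 0.088 (brain), 0.262 (kidney), 0.208 (liver) and 0.206 (lung). A run is not a labelled batch. Full values are given for up to 4 members highest per tissue, up to 3 per inbred pair and tissue, up to 2 per mid-parent contrast and up to 3 per reciprocal or sex contrast, and other members may be named. The members and lists were chosen with earlier results of these data known. The 3 symbols outside the rule are not reported here.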

Additional observations from a re-analysis of the deposited data

Results flagged for a closer look

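One array stood apart within its group among the 25 groups of 4 to 10 arrays examined for the named members, a count that chance gives for about 1 in 20 groups. On the male CASTxPWK liver array numbered replicate 6, Abca8b read 10.38, and the other arrays of that group lay between 9.27 and 9.82.

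The strain difference of 16 named gene and strain pairs, of 17 that could be tested, was unequal across the 4 tissues by the F test. Over all genes this test passed for 65.7% (CAST-PWK), 69.3% (CAST-WSB) and 65.6% (PWK-WSB). The named pairs were chosen for a large difference in a tissue of the same arrays, which favours inequality across tissues. Their count is therefore no result about these genes. The span from the lowest to the highest tissue difference, in log2 units, gives the size of each inequality. It was widest for the drug-efflux genes, with 2.39 for the CAST-WSB difference of Abcb1a (from -1.08 in liver to 1.31 in kidney) and 2.16 for its PWK-WSB difference. For Abcg2 the CAST-WSB span was 2.08 and the PWK-WSB span 1.59, with kidney and liver at the ends. Abca9 had a span of 1.45 between CAST and PWK and 1.03 between CAST and WSB, each with kidney highest. Abcc9, the sulfonylurea receptor, had 1.02 between PWK and WSB and 0.73 between CAST and WSB, and Abcd2 had 1.03 between PWK and WSB. Abcc4 had 0.91 and Abca5 0.72 between CAST and WSB, and Abcb6 had 0.73 between CAST and PWK. The smaller spans were 0.51 for Abca2 and 0.42 for Abcb10 between CAST and PWK, 0.39 for Abcb9 between PWK and WSB and 0.3 for Abcc10 between CAST and WSB.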

How the results depend on the processing

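The members called highest numbered 3 (brain), 4 (kidney), 6 (liver) and 1 (lung), and with the animal as a replicate block these counts and the 61 strain-by-tissue calls were the same. That block pairs the tissues of an animal. A minimum gap of 2 log2 units left 2 members in kidney and 0 in lung. The filter at the 60th percentile, which tests fewer genes, left 37 inbred calls in lung, 12 and 16 mid-parent calls in brain and lung, 1 sex call in kidney and 1 in lung. No filter gave 1 sex call in lung and 100 strain-by-tissue calls. The run block left 11, 13, 15 and 10 mid-parent calls in brain, kidney, liver and lung, 0 sex calls in lung and 4 reciprocal calls, and array weights gave 47 reciprocal calls against 21. The cause of these changes was not tested. Without the 2 lung arrays with raised liver genes, an alternative chosen after seeing the data, lung had 0 sex calls. The mean linear signal of the parents was likewise chosen after seeing the data. Against it, 23 of the 24 named mid-parent differences moved by less than 1 SD of the F1 arrays, and that of Abca8a in lung for PWK and WSB was 0.0. This SD is the spread of single arrays and a looser measure than the SE of a difference. The Abca17 lung differences for CAST-PWK and PWK-WSB moved by more than their SE. Leaving out each of 39 single arrays of the smallest brain and liver groups gave 39 to 45 inbred calls in brain and 57 to 61 in liver, 15 to 20 and 34 to 39 mid-parent calls, 0 to 0 and 11 to 12 sex calls, and 21 to 21 reciprocal calls. Of the 77 named results, 15 lost their call with the run block, 4 without a filter, 3 with additive sex and 1 with the marker covariate, and none reversed under these.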
